A study of Mus musculus with 16 samples.

Results

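Tbx1 and 7 other mouse orthologues of genes in the human 22q11 deletion were followed over the 4 Kat6a and Kat6b genotypes of this series, to see whether Tbx1 alone responded. The 8 genes (Tbx1, Crkl, Dgcr8, Hira, Gnb1l, Cdc45, Ufd1 and Ranbp1) were found by their symbols among the 26411 genes of the count files, and all 8 had enough counts to be tested. The libraries came from 16 whole embryos taken at E9.5, 4 of each genotype. Kat6a+/+Kat6b+/+ embryos were the wild-type controls, and Kat6a-/-Kat6b+/+ embryos were homozygous for a Kat6a null allele. Kat6a+/+Tg(Kat6b) embryos carried a Kat6b transgene with both Kat6a alleles intact, and Kat6a-/-Tg(Kat6b) embryos carried the transgene and lacked KAT6A. The transgene was a bacterial artificial chromosome with the whole Kat6b gene and flanking DNA, inserted as several copies in a single founder line, so that its effect and that of its insertion site cannot be told apart. All mice were kept on a hybrid FVB x BALB/c background.

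KAT6A and KAT6B are related histone acetyltransferases. Deletions at human chromosome band 22q11 cause DiGeorge syndrome, with defects of the heart outflow tract, aortic arch arteries, thymus, parathyroids, palate and face. Tbx1 encodes a T-box transcription factor made in the pharyngeal endoderm, the core mesoderm of the pharyngeal arches, the second heart field and the otic vesicle. It is the gene of the deletion whose loss in mice gives most of the heart and pharyngeal defects. The other 7 genes act in most dividing cells: Crkl encodes an adaptor in growth factor signalling, Dgcr8 the RNA-binding subunit of the Microprocessor that starts microRNA maturation, Hira a histone chaperone, Cdc45 a subunit of the replicative helicase, Ufd1 a ubiquitin-binding cofactor of the VCP segregase, Ranbp1 a regulator of the Ran GTPase cycle of nuclear transport, and Gnb1l a WD-repeat protein.

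The 8 genes lie within 1519 kb of mouse chromosome 16 (chr16:17269821-18789059, GRCm39), with Crkl at one end and Hira at the other. Between them the order is Ranbp1, Dgcr8, Gnb1l, Tbx1, Cdc45 and Ufd1. Tbx1 (chr16:18399729-18409421, minus strand) is 10743 bases from the end of its nearest neighbour among the 8, Gnb1l (chr16:18317463-18388985, plus strand), which is transcribed towards it. The sequences upstream of these neighbours are shown because one of them belongs to the gene that changed and the other to the adjacent gene that did not pass the test. Each is the 250 bases before an annotated start, 5′ to 3′ on the gene's strand, with every CG dinucleotide in capitals.
Tbx1, chr16:18407650-18407899, minus strand: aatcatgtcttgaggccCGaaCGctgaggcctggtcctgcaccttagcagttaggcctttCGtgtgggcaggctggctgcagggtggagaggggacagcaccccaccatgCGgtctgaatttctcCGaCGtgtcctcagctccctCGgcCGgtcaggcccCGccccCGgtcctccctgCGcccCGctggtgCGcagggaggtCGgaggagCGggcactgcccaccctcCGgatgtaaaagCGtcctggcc
Gnb1l, chr16:18317213-18317462, plus strand: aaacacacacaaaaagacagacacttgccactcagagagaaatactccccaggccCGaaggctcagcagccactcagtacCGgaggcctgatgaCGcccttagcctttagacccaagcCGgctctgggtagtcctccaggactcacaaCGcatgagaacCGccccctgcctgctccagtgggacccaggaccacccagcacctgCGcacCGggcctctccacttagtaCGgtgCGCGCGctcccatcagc
Both come from RefSeq's GRCm38.p6 promoter table and were placed on GRCm39 by exact match. The Tbx1 stretch held 17 CG dinucleotides and the Gnb1l stretch 12, against a median of 6 (quartiles 2 and 16) in the 32851 upstream stretches of the table. Fewer CG dinucleotides were found in 76.5% of all these stretches than in that of Tbx1 and in 66.5% than in that of Gnb1l, so neither stretch stood at an extreme of CG content. The table holds 2 starts of Tbx1. The stretch shown precedes the one that lies inside the annotated span of the gene, and that before the other start, at the 5′ end of the span (chr16:18409422-18409671), held 10 CG dinucleotides, fewer than that of Gnb1l.

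Libraries held between 14407277 and 45665680 counts on genes, and 15679 genes were tested. Kat6b mRNA was between 42.6 and 51.0 CPM (counts scaled to a common library size, with library sizes adjusted by the TMM method) in the 8 embryos without the transgene and between 155 and 227 CPM in the 8 with it, as the labels give. The Kat6a null allele lacks internal exons only, so that whole-gene Kat6a counts do not check it. Kat6a+/+Tg(Kat6b) replicate 1 stood apart in Kat6a, at 138 CPM against 189 to 196 CPM in the other embryos of its genotype. The Tbx1 fold changes of its genotype are given without it as well. Markers of heart, neural tube, otic vesicle, neural crest, sclerotome, pharyngeal tissue and primitive red cells were detected in every embryo except Gcm2, a parathyroid regulator, which had at most 5 counts in any embryo. In whole embryos, fewer cells of a type and less mRNA per cell cannot be told apart.

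In wild-type embryos the levels of the 8 genes differed widely. By RPKM (CPM per kilobase of the listed gene length), Ranbp1 was highest at 535 ± 9.18 RPKM (SD, n = 4), computed on a listed length of only 852 bases. Hira (34.8 ± 0.938), Cdc45 (31.6 ± 1.01), Crkl (31.1 ± 0.581), Ufd1 (28.7 ± 1.65) and Dgcr8 (24.7 ± 1.63 RPKM) followed. Tbx1, at 5.77 ± 0.183 RPKM, and Gnb1l, at 3.07 ± 0.196 RPKM, were the lowest. Ranbp1, Hira, Dgcr8, Tbx1 and Gnb1l held their places in each of the 4 embryos, whereas Cdc45, Crkl and Ufd1 changed places among themselves and did not differ beyond their spread in that order.

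Without KAT6A, Tbx1 fell and none of the other 7 genes passed the threshold. Tbx1 mRNA was at 19.41, 19.88, 20.14 and 20.94 CPM in Kat6a+/+Kat6b+/+ replicates 1 to 4 (20.1 ± 0.638, SD, n = 4). In Kat6a-/-Kat6b+/+ replicates 1 to 4 it was at 15.05, 12.28, 12.76 and 11.81 CPM (13.0 ± 1.44). Every embryo without KAT6A was below every wild-type embryo, and the mean was 64.6% of the wild-type mean. The log2 fold change was −0.65 (SE 0.0767, 95% interval −0.81 to −0.49; edgeR FDR = 4.29e-05), a fall by 36.3%. This was the 10th smallest p-value of the 15679 genes, of which 1.88% passed the FDR threshold of 0.05 in this comparison. An exact permutation test of the CPM values alone gave p = 0.0286 (two-sided), the smallest that 4 embryos against 4 allow, and 7.97% of all tested genes had groups that did not overlap.

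The fall was seen within litters and in each sex. In litter 801 the wild-type embryo was at 19.41 CPM and its Kat6a-/-Kat6b+/+ littermates at 15.05 and 12.28 CPM. Litter 803 gave 19.88 CPM for the wild-type embryo against 12.76 and 11.81 CPM. Among males, the means were 19.6 CPM in wild-type and 12.3 CPM in Kat6a-/-Kat6b+/+ embryos (2 each), and among females 20.5 and 13.7 CPM. With litter as a block the log2 fold change was −0.61 (edgeR FDR = 0.0394).

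With the Kat6b transgene, Tbx1 mRNA in embryos lacking KAT6A lay between the levels of Kat6a-/-Kat6b+/+ and wild-type embryos. Kat6a-/-Tg(Kat6b) replicates 1 to 4 were at 15.75, 16.58, 16.15 and 18.91 CPM (16.8 ± 1.42, SD, n = 4), which was 83.8% of the wild-type mean. All 4 were above the highest Kat6a-/-Kat6b+/+ embryo and below the lowest wild-type embryo. Tbx1 rose by 28.3% from Kat6a-/-Kat6b+/+ to Kat6a-/-Tg(Kat6b) embryos, with a log2 fold change of 0.36 (SE 0.0792, 95% interval 0.20 to 0.52; edgeR FDR = 0.00938). In that comparison 7.14% of all genes passed the threshold and 15.2% had groups that did not overlap.

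Against wild type, the remaining difference of Kat6a-/-Tg(Kat6b) embryos did not pass the threshold. The log2 fold change was −0.29 (95% interval −0.46 to −0.13; edgeR FDR = 0.0940), and with DESeq2 the adjusted p was 0.0594. None of the 8 genes passed in edgeR, DESeq2 or limma-voom, 1 of them (Tbx1) had an unadjusted p under 0.05 in edgeR, and 0.67% of all genes passed. The groups of Tbx1 values nevertheless did not overlap (exact permutation test, p = 0.0286), as was so for 7.1% of all genes. Every Kat6a-/-Tg(Kat6b) embryo came from litter 483 or 498, which held no other genotype, so that litter and genotype cannot be told apart in any comparison with this group.

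The transgene gave higher Tbx1 values in embryos with intact Kat6a, but this difference also missed the threshold. Kat6a+/+Tg(Kat6b) replicates 1 to 4 were at 25.07, 24.43, 22.22 and 21.57 CPM (23.3 ± 1.69, SD, n = 4), 116% of the wild-type mean and all above the highest wild-type embryo. The log2 fold change was 0.23 (SE 0.0738, 95% interval 0.07 to 0.38; edgeR FDR = 0.214), and 0.18 without replicate 1, the library that stood apart (edgeR FDR = 0.597). Of all genes, 0.14% passed the threshold here and 4% did not overlap. In litter 2597 the wild-type embryo was at 20.14 CPM against 22.22 to 25.07 CPM in its 3 Kat6a+/+Tg(Kat6b) littermates, and in litter 2598 the values were 20.94 and 21.57 CPM.

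Ordered by level, the genotypes ran from Kat6a+/+Tg(Kat6b) through wild type and then Kat6a-/-Tg(Kat6b) down to Kat6a-/-Kat6b+/+ embryos, with no overlap between any of the 6 pairs. Among embryos with the transgene, lack of KAT6A went with lower Tbx1, by a log2 fold change of −0.52 (SE 0.0807; edgeR FDR = 0.00197; 3.41% of all genes passed and 10.5% did not overlap). The highest and lowest genotypes, Kat6a+/+Tg(Kat6b) against Kat6a-/-Kat6b+/+, differed by 0.88 on the log2 scale (SE 0.0757; edgeR FDR = 2.54e-07; 12.7% of all genes passed and 15.8% did not overlap). Without Kat6a+/+Tg(Kat6b) replicate 1 these values were −0.46 (edgeR FDR = 0.0133) and 0.84 (edgeR FDR = 1.59e-06). With litter as a block, on 12 embryos, the second was 0.776 and no longer passed (edgeR FDR = 0.145), and no litter holds both genotypes. The comparisons share groups and are not independent. The effect of the null allele with the transgene and that without it differed by 0.13 on the log2 scale (interaction, 95% interval −0.10 to 0.36; edgeR FDR = 0.596; 0.19 without Kat6a+/+Tg(Kat6b) replicate 1, edgeR FDR = 0.578), and 0.153% of all genes passed that test. None of the 8 genes did, while 1 of them (Crkl) had an unadjusted p under 0.05.

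**Figure D1:**
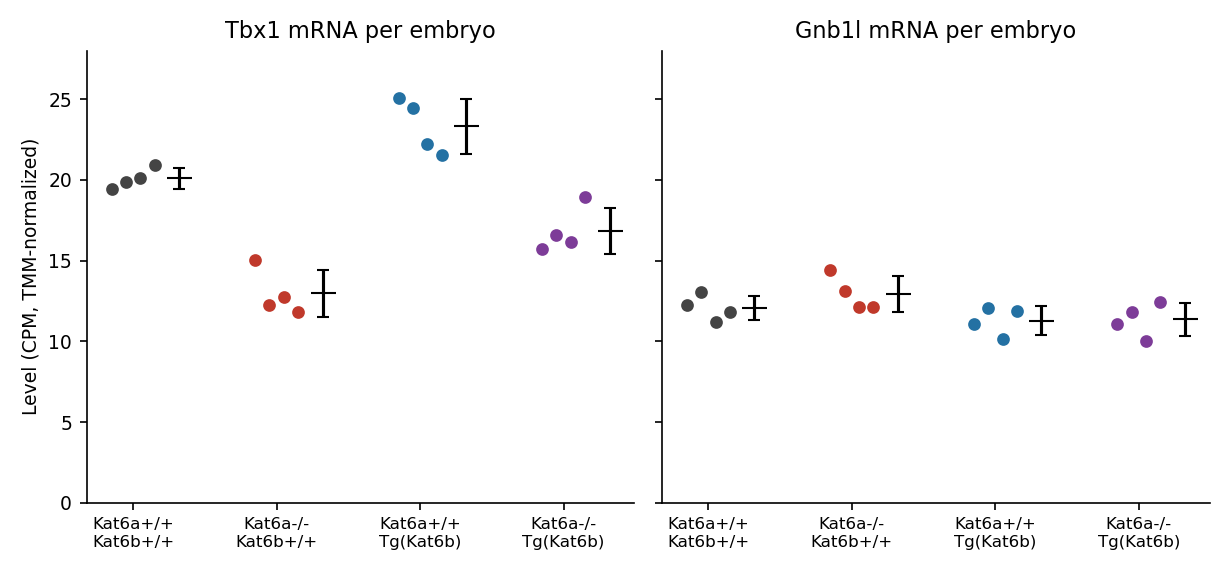
Level of Tbx1 (left) and of its neighbour Gnb1l (right) in CPM in each of 16 E9.5 embryos by genotype; points are embryos in replicate order and bars are means ± SD (n = 4). The 4 groups of Tbx1 values do not overlap, from 11.81 to 15.05 CPM in Kat6a-/-Kat6b+/+ to between 21.57 and 25.07 CPM in Kat6a+/+Tg(Kat6b) embryos. The differences of Kat6a+/+Tg(Kat6b) and Kat6a-/-Tg(Kat6b) from wild-type embryos did not pass the threshold (edgeR FDR = 0.214 and 0.0940). The Gnb1l points of all genotypes lie between 10.05 and 14.44 CPM.

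Gnb1l, which has the level closest to Tbx1 and lies beside it, was set against it embryo by embryo. It was at 12.23, 13.04, 11.21 and 11.81 CPM in wild-type and at 14.44, 13.11, 12.11 and 12.12 CPM in Kat6a-/-Kat6b+/+ embryos. These groups overlapped, and the log2 fold change was 0.09 (SE 0.0737, 95% interval −0.07 to 0.24; edgeR FDR = 0.622). Kat6a+/+Tg(Kat6b) embryos were at 11.07, 12.07, 10.14 and 11.88 CPM. Those that also lacked KAT6A were at 11.10, 11.82, 10.05 and 12.45 CPM. Over all genotypes Gnb1l thus spanned 10.05 to 14.44 CPM, with overlap in 5 of 6 pairs. Its difference nearest to the threshold was between Kat6a-/-Tg(Kat6b) and Kat6a-/-Kat6b+/+ embryos (−0.24 on the log2 scale; edgeR FDR = 0.0588), opposite in sign to that of Tbx1. On the same strand, annotated Rtl10 transcripts share 10.7% of the exon bases of Gnb1l, and it is not given in the sources used here how shared reads were counted.

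The genes of signalling, chromatin and RNA processing did not pass the threshold in any pair of genotypes. Crkl was at 153 to 159 CPM in wild-type, 147 to 155 in Kat6a-/-Kat6b+/+, 147 to 156 CPM with the transgene alone. It was at 154 to 159 CPM where the transgene was combined with loss of KAT6A. Crkl had an unadjusted p under 0.05 in edgeR for Kat6a+/+Tg(Kat6b) against wild-type embryos (−0.07 on the log2 scale, edgeR FDR = 0.377). Crkl had this also for Kat6a-/-Tg(Kat6b) against Kat6a-/-Kat6b+/+ (0.07, edgeR FDR = 0.173) and against Kat6a+/+Tg(Kat6b) embryos (0.09, edgeR FDR = 0.172). Its interaction of null allele and transgene was 0.15 on the log2 scale (unadjusted p = 0.00481 in edgeR's quasi-likelihood test; edgeR FDR = 0.171), the lowest FDR of the other 7 genes in that test. Dgcr8, the partner of Drosha, ranged from 92.4 to 111 CPM over the 16 embryos, and both ends lay in groups with intact Kat6a. Hira, which deposits the replacement form of histone H3 outside of DNA replication, ranged from 148 to 164 CPM. The Hira and Dgcr8 groups overlapped in all 6 pairs of genotypes. Reads for Dgcr8 could be split with Trmt2a, which covers 27.3% of its exon bases on the opposite strand, and those for Hira with Gm28539, a predicted gene on the same strand that shares 44.6% of its exon bases.

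The genes of replication, protein turnover and nuclear transport did not pass in any pair either. Cdc45 was at 66.6 to 71.3 CPM in wild-type and at 68.7 to 74.9 CPM in Kat6a-/-Kat6b+/+ embryos. Ufd1, which overlaps the start of Cdc45 on the other strand, was at 53.9 to 60.5 and 57.4 to 61.5 CPM in the same groups. Ranbp1 was at 447 to 464 CPM in wild-type and 456 to 491 CPM in Kat6a-/-Kat6b+/+ embryos. In Kat6a+/+Tg(Kat6b) replicate 1, the library that stood apart, Ranbp1 reached 527 CPM, the highest of the 16. With the transgene and intact Kat6a, Ranbp1 differed from wild type by 0.08 on the log2 scale (edgeR FDR = 0.343), and 0.04 without that library.

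Across the 6 pairs of genotypes, the 7 other genes gave 42 comparisons. In 0 of the 42 did edgeR pass the threshold, 6 had an unadjusted p under 0.05, in 1 the groups did not overlap (Gnb1l, Kat6a+/+Tg(Kat6b) against Kat6a-/-Kat6b+/+; −0.16 on the log2 scale, edgeR FDR = 0.151; −0.12 without Kat6a+/+Tg(Kat6b) replicate 1), and DESeq2 and limma-voom passed 0 as well. Of all 15679 genes, between 0.14% and 12.7% passed in each of the 6 comparisons. Between 1805 and 4275 of them had an unadjusted p under 0.05 in edgeR, and between 4% and 15.8% did not overlap. The counts of the 7 genes therefore do not set them apart from other genes. Group means of the 7 genes lay between 93.5% and 107% of the wild-type mean. For Kat6a-/-Kat6b+/+ vs. wild-type embryos, their log2 fold changes were between −0.07 and 0.09 and their FDR was at least 0.386. In that comparison 0 of the 7 had an unadjusted p under 0.05, against 2387 of all 15679 genes. The 95% intervals of the 7 lay between −0.17 and 0.24, so none held −1, the log2 fold change that loss of the mRNA of a single gene copy would give. The interval of Tbx1 did not hold −1 either.

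**Figure D2:**
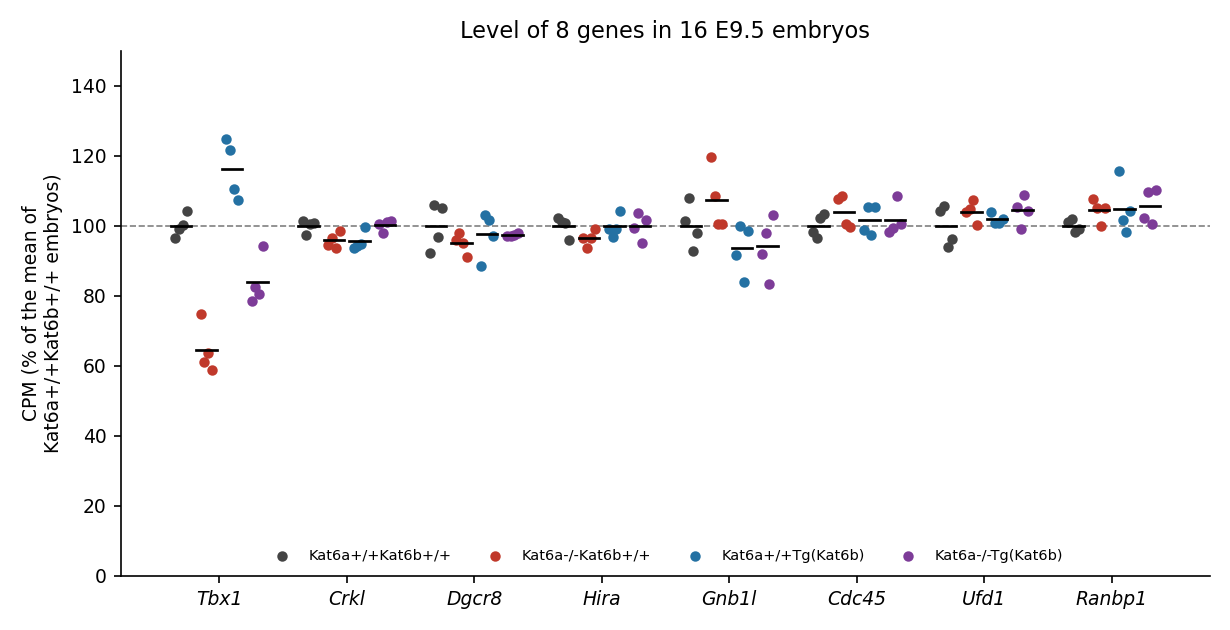
Level of each of the 8 genes in each of 16 embryos, in CPM as a percentage of the mean of the 4 wild-type embryos, with points for embryos, coloured by genotype, and short lines for group means. Tbx1 group means spread from 64.6% to 116% of wild type, and those of the other 7 genes from 93.5% to 107%.

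**Figure D3:**
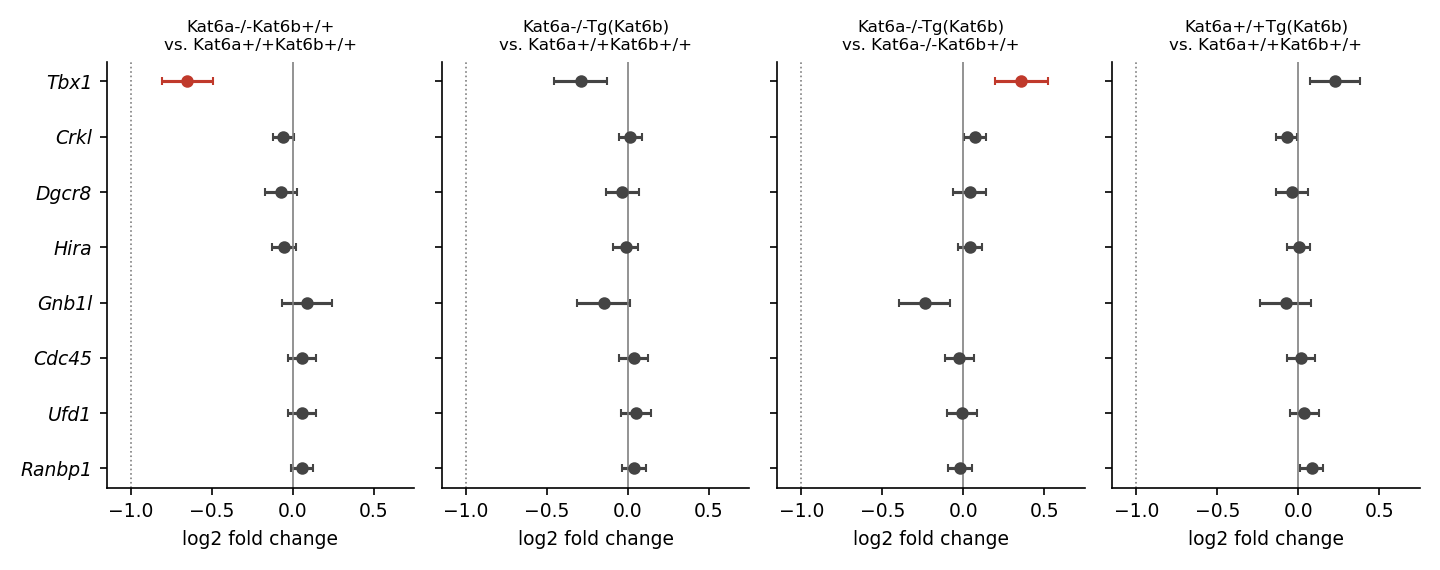
Log2 fold change of the 8 genes (rows) in 4 comparisons (panels), with 95% intervals from edgeR; red marks FDR under 0.05 and the dotted line is at −1, loss of the mRNA of a single gene copy. Tbx1 is red at −0.65 (loss of KAT6A) and at 0.36 (transgene without KAT6A), and every interval of the other 7 genes lies to the right of −1.

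Comparing Tbx1 with each other gene inside the same embryo removes the library size from the measurement. In Kat6a-/-Kat6b+/+ embryos the log2 ratio of Tbx1 to each of the 7 genes differed from that in wild-type embryos by −0.73 to −0.56, without overlap for 7 of 7 ratios (two-sided exact permutation tests, p = 0.0286 each; 0.0343 after Benjamini-Hochberg adjustment over the 42 tests made). The choice of denominator therefore made little difference to the size of the fall. Among embryos lacking KAT6A, those with the transgene had ratios higher by 0.31 to 0.57, without overlap for 6 of 7, the exception being the ratio to Crkl (exact permutation test, p = 0.0571). Kat6a-/-Tg(Kat6b) embryos remained below wild type without overlap for 5 of 7 ratios, by −0.33 to −0.17. Kat6a+/+Tg(Kat6b) embryos were above wild type without overlap for 3 of 7, by 0.15 to 0.31 (0.139 to 0.266 without replicate 1). Since each of the 7 ratios contains the same Tbx1 counts, they are not 7 independent tests.

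**Figure D4:**
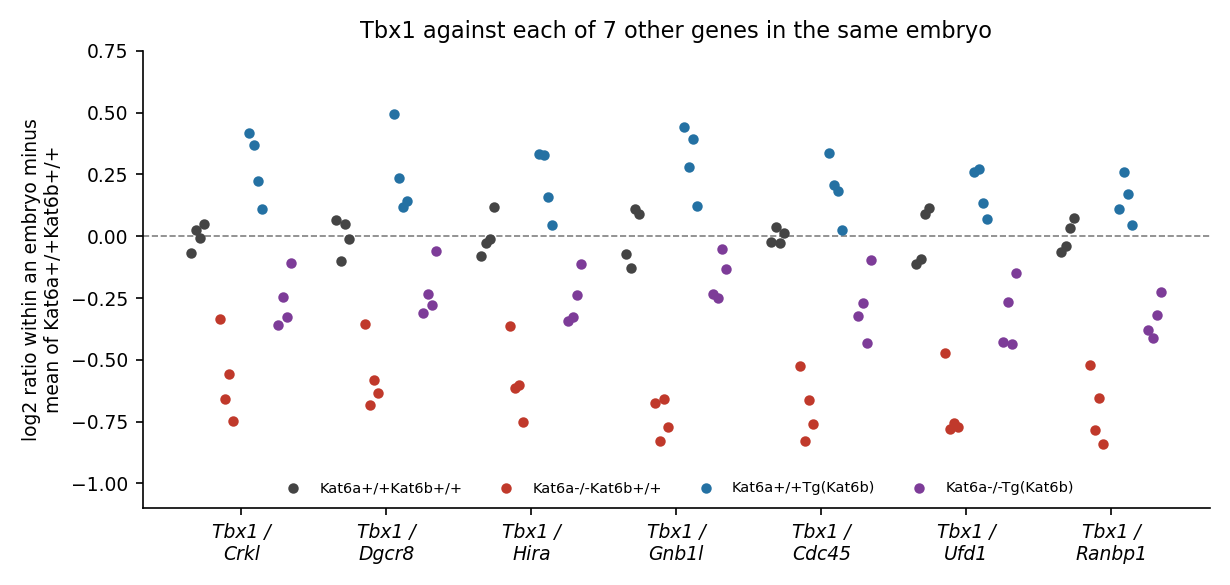
Log2 ratio of Tbx1 counts to those of each of 7 other genes within an embryo, minus the mean of the 4 wild-type embryos; points are embryos, coloured by genotype. For all 7 denominators, the Kat6a-/-Kat6b+/+ embryos lie below every wild-type embryo, with mean differences of −0.73 to −0.56.

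The fall of Tbx1 was not shared by the chromosomal interval. The count files hold 49 genes between the outer ends of Crkl and Hira, 41 of them besides the 8, and 36 were tested. The 13 that were not tested had at most 14 counts in any embryo. In Kat6a-/-Kat6b+/+ vs. wild-type embryos, 21 of the 35 tested genes other than Tbx1 had a log2 fold change above 0 and 14 below it, with a median of 0.03. Besides Tbx1, only Cldn5 passed the threshold, in the opposite direction, where 0.944% of all genes rose. The same count was 1 with DESeq2 and 0 with limma-voom. Cldn5, which encodes a tight junction protein of endothelial cells, was at 24.0 ± 1.03 CPM in wild-type and 29.4 ± 1.97 CPM in Kat6a-/-Kat6b+/+ embryos (SD, n = 4; log2 fold change 0.29, SE 0.0757, edgeR FDR = 0.0487). That call was lost in 11 of 16 fits that left out an embryo (FDR up to 0.166), with log2 fold changes between 0.25 and 0.34. It was also lost in 8 of 12 other alternatives (log2 fold change 0.27 to 0.30, FDR up to 0.506). The lowest value besides Tbx1 was −0.31 for Ccdc74a, a coiled-coil gene at 2.62 CPM in wild-type and 2.09 CPM in Kat6a-/-Kat6b+/+ embryos whose interval reached from −0.70 to 0.09. Ccdc74a and P2rx6, an ATP-gated channel gene at 0.619 and 0.661 CPM, were the 2 genes of the 35 whose intervals held the Tbx1 value, and 0 of the 35 held −1.

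**Figure D5:**
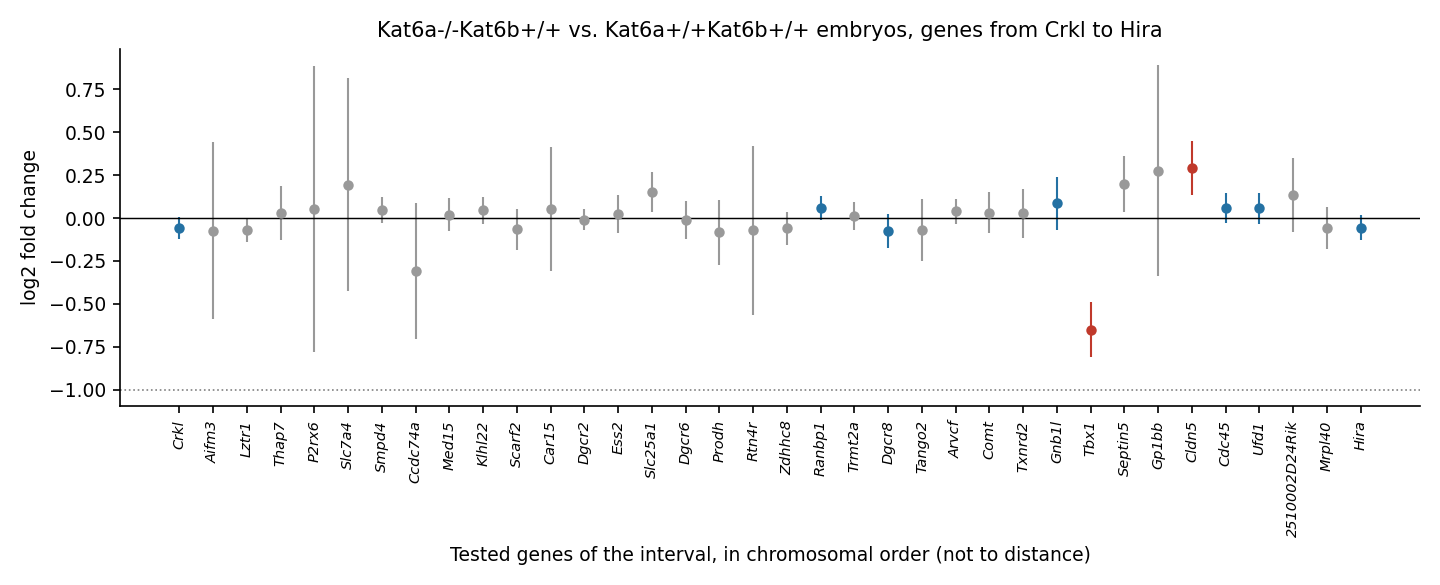
Log2 fold change with 95% interval in Kat6a-/-Kat6b+/+ vs. wild-type embryos for the 36 tested genes from Crkl to Hira, in their order on the chromosome; red marks FDR under 0.05, blue the other 7 of the 8 genes and grey the remaining genes, and the dotted line is at −1. Tbx1 (−0.65) and Cldn5 (0.29) are the red points on either side of 0.

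Among the other orthologues of genes in the human deletion, listed without regard to their position, 35 were in the count files and 31 were tested. In Kat6a-/-Kat6b+/+ vs. wild-type embryos 1 of 31 rose (Cldn5) and 0 fell, with a median log2 fold change of 0.02 against 0.00325 for all genes. Between Kat6a-/-Tg(Kat6b) and Kat6a-/-Kat6b+/+ embryos 4 of 31 fell and 0 rose, where 3.74% of all genes fell. They were Cldn5 (−0.31; edgeR FDR = 0.0192), the catenin relative Arvcf (−0.15; edgeR FDR = 0.0187), the mitochondrial citrate carrier Slc25a1 (−0.21; edgeR FDR = 0.0282) and the septin Septin5 (−0.28; edgeR FDR = 0.0449). All 4 moved opposite to Tbx1 in that comparison. Leaving out an embryo ended these calls in 5, 4, 6 and 11 of 16 fits, in the same order, with FDR up to 0.238. Pi4ka, a lipid kinase, was lower in Kat6a+/+Tg(Kat6b) than in Kat6a-/-Kat6b+/+ embryos (−0.22; edgeR FDR = 0.0122), which was lost without Kat6a+/+Tg(Kat6b) replicate 1 (−0.13; edgeR FDR = 0.0691) or without Kat6a-/-Kat6b+/+ replicate 3 (edgeR FDR = 0.0577).

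Genes reported to act downstream of Tbx1 were among those that fell without KAT6A. Of 20 such genes, 19 were tested, and Myod1, with at most 11 counts in any embryo, was not. In Kat6a-/-Kat6b+/+ vs. wild-type embryos 5 of 19 fell and 0 rose, with a median log2 fold change of −0.16, and 0.938% of all genes fell. This list, like the others here, was chosen with earlier results of these data known. Its counts beside the share of all genes are thus descriptions and no test. Whether these genes changed through Tbx1 was not tested. Cyp26b1 and Cyp26c1 encode enzymes that break down retinoic acid. Cyp26b1 fell by 0.69 on the log2 scale (SE 0.0664; edgeR FDR = 2.05e-06), from 40.9 to 25.2 CPM, and Cyp26c1 fell by 0.52 (edgeR FDR = 0.00961). The pharyngeal homeobox gene Nkx2-6 fell by 0.66 (edgeR FDR = 0.0101), the homeobox gene Lhx2 by 0.34 (edgeR FDR = 0.00123), and the signalling ligand gene Wnt5a by 0.32 (edgeR FDR = 0.00216). The Cyp26c1 call was lost without Kat6a+/+Kat6b+/+ replicate 2 (FDR = 0.089) or Kat6a-/-Kat6b+/+ replicate 4 (FDR = 0.0518) and the Nkx2-6 call without Kat6a+/+Kat6b+/+ replicate 2 (FDR = 0.0737). With litter as a block 1 of the 5, Cyp26b1, still passed. Without surrogate variables Cyp26c1 and Nkx2-6 also lost the call.

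With the transgene, 4 of these 19 genes rose in embryos lacking KAT6A and 0 fell, with a median of 0.15, where 3.39% of all genes rose. Wnt5a rose by 0.43 on the log2 scale (edgeR FDR = 9.58e-05) and reached 89.7 CPM against 82.5 CPM in wild-type embryos. Cyp26b1 rose by 0.39 (edgeR FDR = 0.00198) and reached 33.1 CPM, below the 40.9 CPM of wild type (edgeR FDR = 0.0427 for that difference, which was lost in 13 of 16 fits without an embryo, FDR up to 0.128). Cyp26c1 rose by 0.36 (edgeR FDR = 0.0398), a call lost in 7 of 16 fits without an embryo (FDR up to 0.143). Between the extremes, 8 of the 19 were higher with the transgene and intact Kat6a than without both, where 5.46% of all genes were higher and 7.19% lower, and 1 was lower (Flt4, a receptor gene of lymphatic and other endothelium; −0.19, edgeR FDR = 0.0286). Fits without an embryo called 5 to 10 of the 19, with 5 when Kat6a-/-Kat6b+/+ replicate 4 and 6 when Kat6a+/+Tg(Kat6b) replicate 1 was left out. Summed over the 19 genes, the level was 600 ± 6.76 CPM in wild-type and 531 ± 9.47 CPM in Kat6a-/-Kat6b+/+ embryos (SD, n = 4). With the transgene it was 595 ± 9.61 CPM when Kat6a was intact and 581 ± 5.09 CPM when it was not.

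Of 12 upstream regulators of Tbx1 and genes that pattern the pharynx with it, 2 fell and 0 rose without KAT6A, where 0.938% of all genes fell. These were Foxc2, a forkhead gene of head and arch mesenchyme (−0.28; edgeR FDR = 0.0085), and Aldh1a2, which encodes the main retinoic acid synthesis enzyme of the embryo (−0.27; edgeR FDR = 0.0014). Aldh1a2 was also lower than wild type in Kat6a-/-Tg(Kat6b) embryos, by a log2 fold change of −0.28 (edgeR FDR = 0.00444), and was at 61.6 CPM without and 61.3 CPM with the transgene when KAT6A was lacking. Foxc2 was lower there too (−0.26; edgeR FDR = 0.0346), a call lost in 12 of 16 fits without an embryo (FDR up to 0.165). The Foxc2 call against wild type in Kat6a-/-Kat6b+/+ embryos was lost without Kat6a+/+Kat6b+/+ replicate 2 (edgeR FDR = 0.0571) and without surrogate variables. Between the extremes (transgene with intact Kat6a against loss of KAT6A without it) 6 of 12 rose and 0 fell, where 5.46% of all genes rose. They included Foxc2, Aldh1a2, Hes1 (0.36; edgeR FDR = 0.00127), Gbx2 (0.32; edgeR FDR = 0.00852) and Shh (0.17; edgeR FDR = 0.0274), and the Shh call was lost in 6 of 16 fits without an embryo (FDR up to 0.0768).

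Partners of the other 7 proteins passed in edgeR only between the extremes. In each of the 5 other comparisons, 0 of the 27 partner genes passed in edgeR, where between 0.14% and 7.14% of all genes passed. With shares this small, 0 of 27 does not set the partners apart from other genes. Of the 27, 0 to 7 had an unadjusted p under 0.05 in edgeR and 0 to 3 passed in DESeq2. These genes include the Mcm and Gins subunits of the helicase that Cdc45 completes, Drosha, the Hira complex genes Ubn1, Ubn2 and Cabin1, Vcp and Nploc4 of the Ufd1 complex, Ran and its regulators, and the Crkl partners Rapgef1 and Dock1. For Kat6a-/-Kat6b+/+ vs. wild-type embryos their log2 fold changes lay between −0.09 and 0.12. Between the extremes 5 of 27 fell and 1 rose, where 7.19% of all genes fell and 5.46% rose. Ubn2 (−0.42; edgeR FDR = 0.0224), Ranbp2 (−0.34; edgeR FDR = 0.0387), Rapgef1 (−0.15; edgeR FDR = 0.00616) and Cabin1 (−0.12; edgeR FDR = 0.0404) lost the call without Kat6a+/+Tg(Kat6b) replicate 1, the library that stood apart (FDR 0.0627, 0.117, 0.0507 and 0.22), and all but Rapgef1 also without embryos of other groups. Dock1 (−0.20; edgeR FDR = 0.00391) and Rangap1 (0.11; edgeR FDR = 0.013) kept it in all 16 such fits.

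Markers of tissues in which Tbx1 is made were counted beside it, where 0.938% of all genes fell without KAT6A. Of 5 markers of branchiomeric muscle mesoderm, 1 fell in Kat6a-/-Kat6b+/+ vs. wild-type embryos (Lhx2), and 5 of 5 had values below 0, between −0.72 and −0.13. Their summed level ran from 72.2 to 82.4 CPM in wild-type and from 57.2 to 65.8 CPM in Kat6a-/-Kat6b+/+ embryos, where its mean was 80.7% of wild type. With the transgene it ran from 74.7 to 84.1 CPM (104%) when Kat6a was intact and from 72.5 to 79.4 CPM (98.7%) when it was not. None of the 5 was at 0 in any embryo. Lhx2 made up most of these sums, with a mean of 51.9 of 77.2 CPM in wild-type and 41.1 of 62.3 CPM in Kat6a-/-Kat6b+/+ embryos. The sums thus do not weigh the 5 markers alike. Lhx2 also stands among the genes downstream of Tbx1. Of 8 otic vesicle markers 2 fell without KAT6A, Oc90 (−1.41; edgeR FDR = 0.00482) and Pax2 (−0.40; edgeR FDR = 0.0440, lost in 13 of 16 fits without an embryo, FDR up to 0.154), with summed levels of 125 to 132 CPM in wild-type and 109 to 119 CPM in Kat6a-/-Kat6b+/+ embryos. Oc90 did not follow Tbx1 with the transgene: in Kat6a-/-Tg(Kat6b) embryos it was also lower than wild type (−1.48; edgeR FDR = 0.0135), with a log2 fold change of −0.07 against Kat6a-/-Kat6b+/+ embryos (edgeR FDR = 0.918). The otic sums of Kat6a-/-Tg(Kat6b) embryos were 115 to 132 CPM. Otx2 had the most counts in the otic sums, 593 to 2057 an embryo, and Sox10 is also listed as a neural crest marker. Of 7 tested genes listed as pharyngeal endoderm markers 1 fell (Hoxb1, −0.66; edgeR FDR = 1.79e-05), with sums of 146 to 160 and 126 to 139 CPM. The mean of Hoxb1 alone went from 20.2 to 13.0 CPM, and that of the sum from 150 to 133 CPM. Much of the lower sum was thus Hoxb1. Hox genes are a family that the paper reports as lower without KAT6A. Whether the Hoxb1 mRNA of these whole embryos came from endoderm was not tested. Nor was it tested for any other marker whether its mRNA came from the tissue of its list, so the sums do not measure these tissues alone. Hoxb1 was higher in Kat6a-/-Tg(Kat6b) than in Kat6a-/-Kat6b+/+ embryos (0.49; edgeR FDR = 0.000528), and the endoderm sums of the former were 135 to 149 CPM. The part of these tissues in the fall of Tbx1 was not tested.

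Of 8 markers of the second heart field and heart 0 passed in edgeR or DESeq2 for Kat6a-/-Kat6b+/+ vs. wild-type embryos, where 1.88% of all genes passed in edgeR. Of the 8, 1 had an unadjusted p under 0.05, Nkx2-5, with a log2 fold change of −0.38 (edgeR FDR = 0.109). The sums were 455 to 493 CPM in wild-type and 482 to 542 CPM in Kat6a-/-Kat6b+/+ embryos. Myh6 had the most counts in them, 3179 to 11250 an embryo. In Kat6a+/+Tg(Kat6b) embryos the sums spread from 302 to 508 CPM. Of 7 neural crest markers 2 fell (Dlx2, −0.31, edgeR FDR = 0.0474; Foxd3, −0.46, edgeR FDR = 0.0392), calls lost in 12 and 10 of 16 fits without an embryo (FDR up to 0.196 and 0.136). All 7 had log2 fold changes below 0, with a median of −0.16, and 0.938% of all genes fell past the threshold in this comparison. Neural crest sums were 421 to 445 CPM in wild-type and 381 to 402 CPM in Kat6a-/-Kat6b+/+ embryos, without overlap, and their means of 434 (transgene alone), 429 (wild type), 412 (transgene without KAT6A) and 396 CPM (loss of KAT6A) had the same order of genotypes as Tbx1. The sums of pharyngeal endoderm, branchiomeric muscle mesoderm and otic vesicle markers had this order too, so it was not particular to neural crest. Those of heart, sclerotome, erythroid and neural tube markers did not have it. Twist1 and Ets1 had the most counts in the neural crest sums, 2533 to 6748 and 1832 to 6175 an embryo. The part of neural crest in the fall of Tbx1 was not tested. Of 6 sclerotome markers 2 fell (Foxc2 and Uncx; −0.34, edgeR FDR = 0.0136 for Uncx, lost without Kat6a+/+Kat6b+/+ replicates 2 or 4 or Kat6a-/-Kat6b+/+ replicate 4, FDR up to 0.0705). Of 6 markers of primitive erythroid cells and 5 of the neural tube, 0 passed in edgeR or DESeq2 there, with 0 and 1 at an unadjusted p under 0.05. Erythroid sums ran from 2987 to 4713 CPM in wild-type and 2509 to 4783 CPM in Kat6a-/-Kat6b+/+ embryos.

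Of the 5 genes whose levels were most like that of Tbx1 over the 16 embryos, 0 lay in the interval from Crkl to Hira. Among 12904 genes compared, Pearson's r of log2 CPM was 0.918 for Hoxb3, 0.913 for the noncoding RNA Dlx6os1, 0.905 for A930004D18Rik, 0.900 for Skida1 and 0.899 for Cyp26b1. These correlations are descriptions. They span the genotype groups, and the 16 libraries share litters. Hoxb3 was at 74.0 CPM in wild-type and 56.2 CPM in Kat6a-/-Kat6b+/+ embryos, and with the transgene at 83.0 CPM (intact Kat6a) and 64.4 CPM (KAT6A lacking), the same order of genotypes as for Tbx1. Given likewise, Dlx6os1 was at 4.84, 1.18, 5.55 and 2.76 CPM and Skida1 at 71.2, 46.9, 74.6 and 60.0 CPM, which is again that order of genotypes. Cyp26b1 did not share it, with 40.9 CPM in wild-type above 40.2 CPM in Kat6a+/+Tg(Kat6b) embryos. A shared order is no finding, since these genes were chosen by their correlation with Tbx1. Hoxb3 fell by 0.39 (edgeR FDR = 3.27e-06) and Dlx6os1 fell by 1.96 on the log2 scale (edgeR FDR = 4.28e-07) in Kat6a-/-Kat6b+/+ vs. wild-type embryos. For the other 7 genes of the deletion, r with Tbx1 lay between −0.32 (Gnb1l) and 0.37 (Hira).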

How the data were processed

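Whole E9.5 embryos were profiled by RNA-seq (TruSeq RNA v2, paired-end). The authors used Rsubread for alignment to mm39, and the submitters' processing notes name bcl2fastq and featureCounts. The deposited values are raw counts per gene, 1 table per embryo, with gene lengths. The gene annotation, the strand setting and the handling of shared reads are not given in the sources used here.

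Counts were fitted with edgeR 4.0.16 (R 4.3.3), as deposited: genes were kept by filterByExpr (minimum count 10, minimum total 15), scaled by TMM, and tested by the quasi-likelihood F test with the 4 genotypes and 2 surrogate variables (sva 3.50.0). Benjamini-Hochberg FDR was taken over all 15679 genes, with a threshold of 0.05. SE is the absolute log2 fold change divided by the square root of F. Single values were compared by two-sided exact permutation tests. DESeq2 1.42.0 and limma 3.58.1 (voom) were alternatives, with other scalings, filters and covariates, a replicate block, a litter block and fits without each embryo. The fit was tested on simulated data.

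The 8 genes and all lists were chosen with earlier results of these data known. Named from each list were members past the threshold in at least 1 of the 6 comparisons (at most 6 a list, by smallest FDR), and the 5 genes most like Tbx1. Flt4, Ccdc74a and P2rx6, outside this rule, were chosen after their values were seen. Some list members are counted but not reported by name here. Positions come from the GRCm39 annotation by Entrez identifier or symbol, upstream sequences from RefSeq. Within a genotype, counts differed beyond counting error in all 24 pairs of embryos (chi-square per degree of freedom 1.83 to 15.7), so none was counted as a duplicate. p-values measure the spread between these embryos, some of them littermates.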

Additional observations from a re-analysis of the deposited data

Results flagged for a closer look

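In 140 groups of 4 embryos checked for a sample far from the other 3, 5 held one, and chance alone flags about 1 in 20 groups. Kat6a+/+Tg(Kat6b) replicate 1 was low in 2 of the 5: Pi4ka was at 82.7 CPM there against 98.3 to 101 CPM in the other embryos of its genotype, and Ranbp2 was at 199 CPM against 246 to 251 CPM. Hes1 was at 43.0 CPM in Kat6a-/-Tg(Kat6b) replicate 3 against 45.6 to 45.8 CPM. Cabin1 was at 141 CPM in Kat6a-/-Tg(Kat6b) replicate 1 against 133 to 134 CPM. Rangap1 was at 352 CPM in wild-type replicate 3 against 337 to 339 CPM. None of these was a value of Tbx1 or of the other 7 genes followed with it.

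The effect of the Kat6a null allele on Dlx6os1, one of the 5 genes most like Tbx1, differed with the transgene, by an interaction of 1.11 on the log2 scale (edgeR FDR = 0.0395). That call was lost in 11 of 16 fits without an embryo (log2 0.97 to 1.26, FDR up to 0.108) and in 5 of 10 other alternatives (FDR up to 0.178).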

How the results depend on the processing

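The 4 Tbx1 differences past the threshold kept their direction under all alternatives and their call under all but 1. With litter as a block, on 12 embryos, Tbx1 in Kat6a+/+Tg(Kat6b) against Kat6a-/-Kat6b+/+ embryos was 0.776 on the log2 scale (edgeR FDR = 0.145), so that 0 of the 8 genes passed there. No litter holds both genotypes, and all genes passing fell from 1984 to 8. The log2 fold change without KAT6A ran from −0.709 to −0.608 (28 alternatives, FDR up to 0.0394) and that of the transgene without KAT6A from 0.32 to 0.438 (27, FDR up to 0.0427). The other 7 genes passed in 0 of 1337 alternative values; 78 changed sign and 1 left its interval. Litter blocks could not be fitted with Kat6a-/-Tg(Kat6b) embryos.

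With the replicate number as a block, Tbx1 was at −0.649 (loss of KAT6A), 0.326, −0.324, 0.236, −0.56, 0.885 and 0.0895 on the log2 scale over the 7 comparisons, in the order of the text, and no Tbx1 call changed. Same-numbered embryos correlated at −0.255 to 0.215 in 24 pairs, 10 above 0.1, and 0 embryos correlated best with their own number throughout, so the numbers do not pair the embryos.

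Counts of all genes past the threshold moved more. For loss of KAT6A the count was 295, with 18 under the litter block and 137 to 432 without an embryo (432 without Kat6a+/+Tg(Kat6b) replicate 1). Against wild type, Kat6a-/-Tg(Kat6b) gave 105 (39 to 241, 241 by DESeq2) and Kat6a+/+Tg(Kat6b) gave 22 (1 to 203, 203 by DESeq2). The transgene without KAT6A gave 1119 (492 to 1671), loss of KAT6A with the transgene 535 (165 to 880), and the interaction 24 (16 to 133). The share of genes called beside each member count moves with these. Depth was at least 216 Tbx1 counts in an embryo.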
